A study of Rattus norvegicus with 43 samples.

Results

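The transcripts described here are those of the AP-1 transcription factor, namely Fos, Fosl1 and Fosl2 of the Fos family and Jun, Junb and Jund of the Jun family, together with Atf3. Members were matched by the single gene symbol that the platform annotation gives to a probe set. The 7 genes had 13 probe sets, of which 10 passed a filter on low signal (above the median of the array in at least 5 of 43 arrays). For a gene with several of these, the brightest on average over the log2 values stood for it. All 7 were among the 10649 genes tested. They were followed from rat liver into rat primary hepatocytes (RPH) at 0, 4, 24 and 48 hours. The RPH 0 h sample was the cell pellet after collagenase perfusion. The RPH 4 h, RPH 24 h and RPH 48 h samples were cells plated on collagen with insulin, transferrin and dexamethasone, in serum at first and without serum from 4 h on. The liver sample was a lobe tied off before the perfusion. All came from untreated male Sprague Dawley rats whose age is not given, and the same 3 rats gave a sample to each of the 5 groups. Up to 3 technical arrays were run per sample, and their log2 values were averaged, so n = 3 rats per group throughout.

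AP-1 is a family of dimers. Jun proteins pair with each other or with Fos proteins through a leucine zipper, while Fos proteins need a Jun partner to bind DNA. Many of the genes are immediate early genes, which are transcribed within minutes of growth factors, cytokines, cell stress or loss of tissue contact and without new protein synthesis. In liver they are known for their rapid induction after partial hepatectomy and after collagenase isolation of hepatocytes. Atf3 belongs to the ATF/CREB family, is induced by many stresses and can pair with Jun proteins.

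2 arrays went against their labels across the whole chip, which touches every comparison with liver or RPH 0 h. The third array of rat 1 labelled RPH 0 h correlated at r = 0.947 with the other RPH 0 h arrays of that rat and at 0.977 with its liver arrays (19013 probe sets). The third array of rat 1 labelled liver correlated at 0.971 with the RPH 0 h arrays of that rat and at 0.954 with its other liver arrays. Of the other arrays 39 correlated best with their own sample, and 2 correlated marginally better with another rat of the same group. The signal of Hbb, the beta globin of red cells, was 27540 on the array labelled RPH 0 h and 163 on the array labelled liver. Both arrays were kept under their labels in the fit over all arrays, and the results of the members that rest on them are given also with both arrays left out. Genes of the pathway lists are given with all arrays unless said otherwise. No array was moved to another group.

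The hepatocyte marker Alb was at 24600 to 41300 in every sample once these 2 arrays were left out, and Vwf, a marker of endothelium, was at 22.3 or lower in all RPH samples and at 167 to 352 in liver. Without the 2 arrays 9 hepatocyte markers, Alb among them, summed to 252000 to 274000 in liver. Their sum was 185000 to 233000 at 24 h and 151000 to 177000 at 48 h. At 48 h 8 of these 9 were below liver, with a median log2 change of -0.587. Markers of other liver cells moved with the groups too, given here without the 2 arrays. The summed signal of 8 Kupffer cell and macrophage markers was 20300 to 26900 in liver, 11400 to 13200 at RPH 0 h, 6210 to 8800 at 4 h, 4420 to 6380 at 24 h and 1680 to 2300 at 48 h. That of 9 sinusoidal endothelial markers was 321 to 676 at RPH 48 h and 12500 to 13600 in liver, and that of 3 red cell markers was 494 or lower in all RPH samples and 30900 to 44200 in liver. The 10 stellate cell and fibroblast markers summed to 10000 to 14900 in liver, 3070 to 7070 at RPH 0 h, 982 to 2710 at 4 h, 2900 to 3100 at 24 h and 5200 to 6820 at 48 h, so they fell to 4 h and were higher again later. The 3 cholangiocyte markers summed to 2200 to 3130 at RPH 48 h and 994 to 1040 in liver. Yet 2 of these 3 were below liver at 48 h, with a median log2 change of -0.085. Krt19 among them was at 12.1 to 51.4 at 48 h and 165 to 222 in liver. In such bulk samples fewer cells of a type and less RNA per cell cannot be told apart, and the part of these cells in the changes below was not tested. A measure of RNA integrity also moved with the groups, namely the beta-actin ratio, in which the control probe set at the 3′ end of the transcript is divided by that at the 5′ end. Its median was 3.82 in liver, 3.61 at RPH 0 h, 2.92 at 4 h, 2.47 at 24 h and 2.28 at 48 h. In liver it was uneven, at 7.16 and 6.12 on the first 2 arrays of rat 1 and 2.89 to 4.30 on the arrays of rats 2 and 3. Without the 2 arrays that go against their labels, this liver of rat 1 was also the lowest for Jun, Junb and Atf3. The part of RNA integrity in this was not tested.

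Of the 7 members, 6 were transient and 4 were still above liver at 48 h. A member was called transient where RPH 48 h was below its highest RPH group, and still up where RPH 48 h was above liver, each at a limma adjusted p under 0.05 over all genes. Fos, Fosl1 and Junb were transient and not above liver at 48 h. Fosl2, Jun and Atf3 were transient and still up, although 1 of the other 2 probe sets of Jun did not meet the rule for transient. Jund was highest at 48 h and still up. These 3, 3 and 1 members were the same genes with all arrays and with the 2 arrays left out. Of all genes tested 25.8% met the rule for transient and 25.4% that for still up (25.9% and 25.1% without the 2 arrays), and 2.1% met both (2.17%). The rule for transient picks the highest group from the same data and asks for no rise over liver. A gene that only declines from RPH 0 h can meet it, and 17.5% of all genes were lower at 48 h than at RPH 0 h. With technical arrays kept apart and an estimated correlation 1 member was called above liver at 48 h (Jund, adjusted p = 0.00655), and 2 were (Jun and Atf3) at an adjusted p under 0.01, with a 2-fold minimum, or with the beta-actin ratio as a covariate once the 2 arrays were left out.

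These promoters are shown because of their genes, both of the Jun family, Jund was called above liver at 48 h and Junb was not, although the genes were not tested against each other. Each is the 300 bases of RefSeq sequence from 250 before to 50 after the annotated start in the GRCr8 build, at chr16:18769722-18770021 on the minus strand for Jund and at chr19:40080876-40081175 on the plus strand for Junb. Capitals mark the letters TGACGTCA, the cAMP response element to which ATF/CREB and Jun dimers bind.
Jund: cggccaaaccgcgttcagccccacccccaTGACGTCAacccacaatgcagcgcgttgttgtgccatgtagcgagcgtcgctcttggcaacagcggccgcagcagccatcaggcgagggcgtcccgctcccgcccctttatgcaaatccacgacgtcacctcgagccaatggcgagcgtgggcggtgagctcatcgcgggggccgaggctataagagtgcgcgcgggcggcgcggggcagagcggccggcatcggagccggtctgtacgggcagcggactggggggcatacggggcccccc
Junb: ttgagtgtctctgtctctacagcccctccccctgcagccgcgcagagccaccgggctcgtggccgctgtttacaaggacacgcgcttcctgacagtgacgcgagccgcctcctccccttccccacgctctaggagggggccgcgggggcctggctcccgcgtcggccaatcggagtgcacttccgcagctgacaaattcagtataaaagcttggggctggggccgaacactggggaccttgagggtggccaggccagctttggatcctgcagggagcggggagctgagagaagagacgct
This element was in the Jund promoter, starting 221 bases before the start site, and in 1.83% of all 33469 promoters of the same length. Both strands were searched for it and for TGANTCA, TGACATCA, TGATGCAA and the CArG box to which serum response factor binds. The other 4 motifs were found in none of the 4 member promoters held, those of Fosl1, Fosl2, Junb and Jund, while TGANTCA was in 7.33%, TGACATCA in 4.34%, TGATGCAA in 0.795% and the CArG box in 1.64% of all promoters. A match of letters is not a measured binding site.

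**Figure D1:**
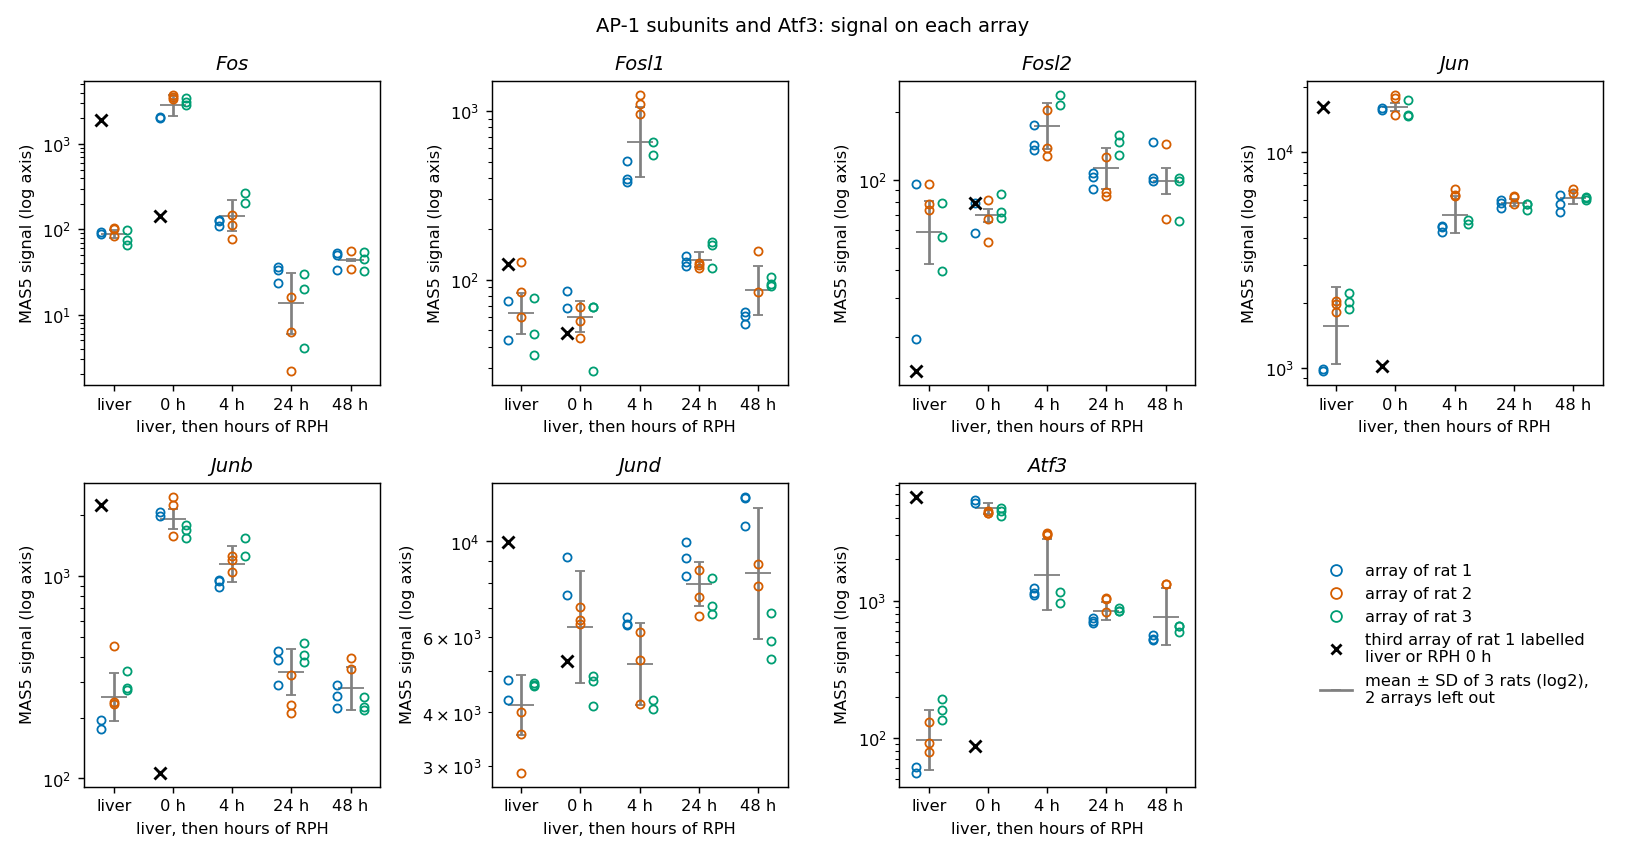
MAS5 signal (log axis) of each member on each of the 43 arrays in liver and in RPH at 0, 4, 24 and 48 h, with rats in colour. Grey bars are the mean ± SD of 3 rats on the log2 scale without the 2 arrays drawn as crosses, which lie among the points of the other group for Fos, Jun, Junb and Atf3.

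Fos, the founding member of its family and a partner of Jun proteins, was a short burst. Its signal was 252, 96.4 and 78 in liver of rats 1, 2 and 3, where the first value is 91.1 without the array labelled liver. At RPH 0 h it was 844, 3540 and 3130, with 2050 in place of 844 when the array labelled RPH 0 h was left out. It was 121, 109 and 232 at 4 h, 30.8, 6.02 and 13.5 at 24 h, and 44.7, 43.8 and 43.1 at 48 h. RPH 0 h stood above every other group without overlap, and 24 h and 48 h stood below liver. Against liver the log2 fold change at RPH 0 h was 4.09 ± 0.63 (SE, adjusted p = 0.0201), and 5.00 ± 0.45 without the 2 arrays (adjusted p = 4.64e-05), a 32.1-fold difference. By 4 h no difference from liver was called (log2 0.23 ± 0.63, adjusted p = 0.785, and 0.72 ± 0.45, adjusted p = 0.206, without the 2 arrays). From 0 h to 4 h it fell by 3.86 on the log2 scale (adjusted p = 0.000384), or by 4.29 without the 2 arrays.

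Fos then dropped under its liver level. At 24 h the log2 fold change against liver was -3.19 ± 0.63 (adjusted p = 0.00109) and -2.70 ± 0.45 without the 2 arrays (adjusted p = 0.000304). These are dim signals, since Fos was above the median of the array on 0 of the 9 arrays at 24 h and on 0 of the 8 at 48 h. The counts were 9 of 9 at RPH 0 h, 7 of 8 at 4 h and 1 of 9 in liver, the array that goes against its label. Apart from that array Fos passed the filter only through RPH 0 h and 4 h. Folds of Fos against liver, also the 32.1-fold difference at RPH 0 h, thus rest on dim signals. With 32 added to every signal the 24 h change was -1.72, and -1.28 without the 2 arrays, and the call held in both. With the beta-actin ratio as a covariate it was -2.53 with all arrays (adjusted p = 0.0642), which did not pass, and -2.72 without the 2 arrays (adjusted p = 0.0154). At 48 h Fos was below liver in 3 of 3 rats, at log2 -1.50 ± 0.63 (adjusted p = 0.0655) and -1.01 ± 0.45 without the 2 arrays (adjusted p = 0.0809), which did not pass. The 48 h level was 2.08% of the 0 h level, or 1.55% without the 2 arrays (1.24% to 2.19% in the 3 rats). A second Fos probe set was above the median on 0 of 43 arrays and is not described further.

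Fosl1, which encodes Fra-1, a Fos protein without the strong activation domain of Fos, rose later. It had a signal of 74, 86.4 and 50.9 in liver of rats 1, 2 and 3 and of 65.6, 56 and 51.3 at RPH 0 h (57.3 and 76.4 for rat 1 in liver and at 0 h without the 2 arrays). At 4 h it was 423, 1100 and 600. It was 128, 121 and 147 at 24 h and 59.6, 112 and 96.1 at 48 h. The 4 h samples were above all others, while liver and RPH 0 h overlapped. The log2 fold change of RPH 0 h against liver was -0.26 ± 0.32 (adjusted p = 0.769), and -0.07 ± 0.33 without the 2 arrays. RPH 4 h was above RPH 0 h by log2 3.51 ± 0.32 (adjusted p = 3.82e-06), or 3.44 ± 0.33, and above liver by 3.25 ± 0.32, or 3.37 ± 0.33 without the 2 arrays (10.3-fold). All 8 arrays at 4 h and 9 of 9 at 24 h were above the median of the array, against 0 of 9 at RPH 0 h. In liver 1 of 9 was, and it is the array that goes against its label. Apart from that array Fosl1 passed the filter only through the cultured groups. Folds of Fosl1 against liver or RPH 0 h thus rest on dim signals.

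The rise of Fosl1 was largely over by 24 h. Between 4 h and 24 h it fell by 2.31 on the log2 scale (adjusted p = 0.000107), and at 24 h it was still above liver by 0.94 ± 0.32 (adjusted p = 0.0277), or 1.06 ± 0.33 without the 2 arrays (adjusted p = 0.0175). Without rat 3 the call against liver was lost in both cases (log2 0.64, adjusted p = 0.291, and 0.83, adjusted p = 0.206). With all arrays it was also lost without the liver or the 24 h sample of rat 3 (adjusted p = 0.112 and 0.081) or the 24 h sample of rat 1 (adjusted p = 0.0541). At 48 h Fosl1 kept 13.2% of its 4 h level (10.2% to 16% in the 3 rats) and was not called against liver, at log2 0.33 ± 0.32 (adjusted p = 0.419), or 0.45 ± 0.33 (adjusted p = 0.276) without the 2 arrays.

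Fosl2, which encodes Fra-2, also peaked at 4 h but was not back at liver level by 48 h. Its signal was 30, 82.3 and 55.8 in liver (43.6 for rat 1 without the array labelled liver), and 71.3, 66.2 and 75.3 at RPH 0 h (67.7 for rat 1 without the array labelled RPH 0 h). It was 150, 154 and 227 at 4 h, 101, 98.3 and 144 at 24 h and 114, 98.4 and 87 at 48 h. Liver and RPH 0 h overlapped, and the 3 later groups were above all liver samples. It was above the median of the array on 0 of 9 arrays in liver and 0 of 9 at RPH 0 h. The counts were 8 of 8 at 4 h, 5 of 9 at 24 h and 3 of 8 at 48 h. It thus passed the filter only through the later groups, and folds against liver or RPH 0 h rest on dim signals. The difference of RPH 4 h over RPH 0 h was log2 1.30 ± 0.30 (adjusted p = 0.00431), or 1.32 ± 0.24 without the 2 arrays (adjusted p = 0.000846), and that of RPH 4 h over liver was 1.75 ± 0.30, or 1.57 ± 0.24. At 48 h it was above liver by 0.94 ± 0.30 (adjusted p = 0.02), or by 0.76 ± 0.24 without the 2 arrays (adjusted p = 0.0186).

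The call of Fosl2 at 48 h was lost with the beta-actin ratio as a covariate and without single samples. With the beta-actin ratio as a covariate the 48 h change was log2 -0.02 (adjusted p = 0.973), and 0.14 without the 2 arrays (adjusted p = 0.787), and without rat 1 it was 0.45 in both fits (adjusted p = 0.255). With all arrays it was also lost without the liver of rat 1 (adjusted p = 0.0869), the 48 h sample of rat 1 (adjusted p = 0.0645) or rat 3 as a whole (adjusted p = 0.0646). The fall between 4 h and 48 h was by 0.81 on the log2 scale (adjusted p = 0.0403, and 0.0134 without the 2 arrays), and without rat 3 it was by 0.52 (adjusted p = 0.349, and 0.184 without the 2 arrays). With all arrays it was also lost without rat 2 (adjusted p = 0.0785) or the 4 h or 48 h sample of rat 2 or 3 (adjusted p between 0.0517 and 0.149). RPH 4 h over RPH 0 h was lost with all arrays without rat 3 (adjusted p = 0.0714), and RPH 24 h over liver in both fits without rat 1 (adjusted p = 0.0585) or rat 3 (adjusted p = 0.086, and 0.0742 without the 2 arrays). A second probe set of Fosl2, which also passed the filter, had mean signals of 19.2 in liver, 30 at RPH 0 h, 240 at 4 h, 146 at 24 h and 94.5 at 48 h. Tested among all probe sets without the 2 arrays, this second probe set was above liver by log2 3.87 ± 0.42 at 4 h (adjusted p = 5.08e-05) and by 2.53 ± 0.42 at 48 h (adjusted p = 0.000775), so both gave the same order of groups with different sizes of change.

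**Figure D2:**
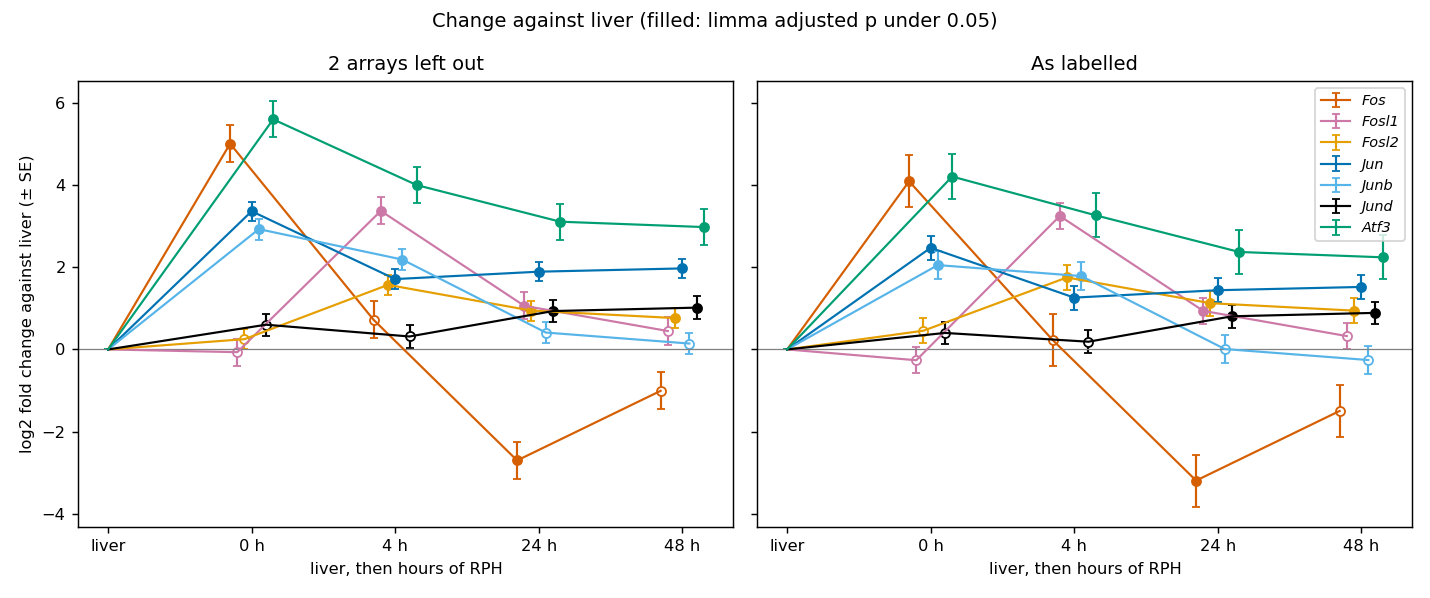
Log2 fold change of each RPH group against liver (± SE, n = 3 rats) for the 7 members, on the left without the 2 arrays and on the right with all arrays. Filled points passed a limma adjusted p under 0.05. Fos, Jun, Junb and Atf3 were highest at 0 h, Fosl1 and Fosl2 at 4 h, and Jund at 48 h.

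Jun, the partner common to the Fos proteins and the main Jun activator, rose at isolation and then held a plateau. Its signal was 2480, 1940 and 2030 in liver (973 for rat 1 without the array labelled liver). At RPH 0 h it was 6360, 16900 and 15600 (15800 for rat 1 without the array labelled RPH 0 h). It was 4430, 6420 and 4740 at 4 h, 5750, 6060 and 5630 at 24 h and 5760, 6580 and 6110 at 48 h. Every RPH sample was above every liver sample, and the 24 h and 48 h samples lay in 1 narrow range. RPH 0 h was above liver by log2 2.47 ± 0.29 (adjusted p = 0.011), or by 3.36 ± 0.24 without the 2 arrays (adjusted p = 7.26e-06, 10.3-fold). From 0 h to 4 h Jun fell by 1.21 (adjusted p = 0.00536), or by 1.65 without the 2 arrays (adjusted p = 0.000141). The first of these was lost without rat 2 (adjusted p = 0.0567) or rat 3 (adjusted p = 0.133), and the second held without any 1 rat.

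No further change of Jun was called after 4 h. The log2 difference was 0.18 ± 0.29 for RPH 24 h over 4 h (adjusted p = 0.665) and 0.08 ± 0.29 for 48 h over 24 h (adjusted p = 0.947). At 48 h Jun was above liver by 1.52 ± 0.29 (adjusted p = 0.000851), or by 1.97 ± 0.24 without the 2 arrays (adjusted p = 1.75e-05, 3.92-fold), in 3 of 3 rats. The log2 difference of RPH 48 h over RPH 0 h was -0.95 ± 0.29 with all arrays (adjusted p = 0.0174), a call lost without rat 2 (adjusted p = 0.16), without rat 3 (adjusted p = 0.205), and without the RPH 0 h sample of either (adjusted p = 0.0821 and 0.0739) or the 48 h sample of rat 1 (adjusted p = 0.0502). Without the 2 arrays it was -1.39 ± 0.24 (adjusted p = 0.000355) and held without any 1 rat. The 48 h level was 51.7% of that at RPH 0 h with all arrays and 38.1% without the 2 arrays, where the 3 rats gave 36.3%, 39% and 39.2%. The other 2 probe sets of Jun were above the median on all 43 arrays and were also highest or tied for highest at 0 h. Their mean signals were 562 and 864 in liver, 3200 and 2650 at RPH 0 h, 1180 and 2210 at 4 h, 1200 and 2110 at 24 h and 1300 and 2650 at 48 h. At 48 h, without the 2 arrays, they were above liver by log2 1.66 ± 0.27 (adjusted p = 0.000587) and 1.96 ± 0.21 (adjusted p = 2.74e-05). From RPH 0 h to 48 h the first fell by 1.30 (adjusted p = 0.0138), or by 1.76 without the 2 arrays (adjusted p = 0.000437). The second was not called lower, at 0.00 ± 0.34 with all arrays and -0.39 ± 0.21 without the 2 arrays (adjusted p = 0.221). Its fall from 0 h to 4 h did not pass either (adjusted p = 0.695, and 0.0521 without the 2 arrays).

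Junb, which encodes a Jun protein with weaker activation that can oppose Jun, rose with it but did not stay. Its signal was 425, 294 and 297 in liver (185 for rat 1 without the array labelled liver). At RPH 0 h it was 763, 2070 and 1680 (2040 for rat 1 without the array labelled RPH 0 h), and at 4 h 930, 1170 and 1400. It was 363, 251 and 416 at 24 h and 254, 369 and 231 at 48 h. Both early groups were above all liver samples, and both late groups overlapped with liver. RPH 0 h was above liver by log2 2.05 ± 0.34 (adjusted p = 0.0257), or by 2.93 ± 0.25 without the 2 arrays (adjusted p = 3.68e-05, 7.6-fold). RPH 4 h was above liver by 1.78 ± 0.34 (adjusted p = 0.000867), or by 2.19 ± 0.25 (adjusted p = 1.93e-05).

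Whether Junb was already falling at 4 h depended on the 2 arrays. The log2 difference of RPH 4 h over RPH 0 h was -0.27 ± 0.34 with all arrays (adjusted p = 0.565) and -0.74 ± 0.25 without them (adjusted p = 0.0342). Between 4 h and 24 h Junb fell by 1.77 (adjusted p = 0.00106), and at 48 h it was not called against liver, at -0.26 ± 0.34 (adjusted p = 0.549), or 0.14 ± 0.25 (adjusted p = 0.663) without the 2 arrays. It kept 20.2% of its 0 h level at 48 h, or 14.5% without the 2 arrays.

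Jund, which is expressed at rest in many tissues, had no early burst. Its signal was 5870, 3460 and 4640 in liver (4510 for rat 1 without the array labelled liver). It was 7130, 6670 and 4570 at RPH 0 h (8300 for rat 1 without the array labelled RPH 0 h) and 6490, 5140 and 4180 at 4 h. At 24 h it was 9120, 7530 and 7340, and at 48 h 12000, 8350 and 5970. RPH 0 h and 4 h overlapped with liver, while all 24 h and 48 h samples were above it, with rat 1 the highest of the 3 in each RPH group. The log2 change against liver was 0.40 ± 0.28 at RPH 0 h (adjusted p = 0.578) and 0.19 ± 0.28 at 4 h (adjusted p = 0.599), or 0.60 ± 0.27 (adjusted p = 0.255) and 0.32 ± 0.27 (adjusted p = 0.358) without the 2 arrays.

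Jund was above liver by 0.81 ± 0.28 at 24 h (adjusted p = 0.0281) and by 0.89 ± 0.28 at 48 h (adjusted p = 0.0173). Without the 2 arrays these were 0.93 ± 0.27 (adjusted p = 0.0124) and 1.02 ± 0.27 (adjusted p = 0.00756), the 48 h value being 2.02-fold. The 24 h call was lost without rat 2 (adjusted p = 0.235, and 0.147 without the 2 arrays) and, with all arrays, without rat 3 (adjusted p = 0.0531), the liver of rat 2 or 3 (adjusted p = 0.122 and 0.0571) or the 24 h sample of rat 1 or 2 (adjusted p = 0.0869 and 0.0521). Without rat 2 the call at 48 h was lost, at 0.70 (adjusted p = 0.203) with all arrays and 0.89 (adjusted p = 0.128) without the 2 arrays. With all arrays it was also lost without the liver of rat 2 (adjusted p = 0.081) or the 48 h sample of rat 1 (adjusted p = 0.0805). RPH 48 h was above RPH 4 h by 0.70 ± 0.27 without the 2 arrays (adjusted p = 0.0466), and the call was lost without any 1 of the rats in the fit over all arrays (adjusted p between 0.0714 and 0.189). With the rat as a replicate block, RPH 24 h over RPH 4 h was called, at 0.62 (adjusted p = 0.0154), against adjusted p = 0.0918 without the block. The other 2 probe sets of Jund did not pass the filter.

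Atf3, a stress-induced factor that represses or activates according to its partner, rose at isolation and was still above liver at 48 h. Its signal was 269, 98.3 and 160 in liver (58.2 for rat 1 without the array labelled liver). At RPH 0 h it was 1340, 4440 and 4450 (5250 for rat 1 without the array labelled RPH 0 h). It was 1160, 3060 and 1050 at 4 h, 712, 960 and 856 at 24 h and 535, 1320 and 631 at 48 h. Every RPH sample was above every liver sample, and the sample of rat 2 was the highest at 4, 24 and 48 h. The liver signal was dim, above the median of the array on 4 of 9 arrays, so that the folds against liver rest on dim signals, 1 of the 4 being the array that goes against its label. RPH 0 h was above liver by log2 4.21 ± 0.54 (adjusted p = 0.0115), or by 5.60 ± 0.44 without the 2 arrays (adjusted p = 1.64e-05, 48.4-fold).

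The decline of Atf3 was called against RPH 0 h, and between no later groups in the fit without a block. RPH 4 h over RPH 0 h was -0.94 ± 0.54 with all arrays (adjusted p = 0.186) and -1.60 ± 0.44 without the 2 arrays (adjusted p = 0.0113). RPH 24 h over 4 h was -0.89 ± 0.54 (adjusted p = 0.21) and 48 h over 24 h was -0.13 ± 0.54 (adjusted p = 0.952), neither of which passed. RPH 48 h over 4 h was -1.02 ± 0.54 (adjusted p = 0.134), and was called without the 2 arrays once the rat was a replicate block (adjusted p = 0.0378). At 48 h Atf3 was above liver by 2.24 ± 0.54 (adjusted p = 0.00398), or by 2.98 ± 0.44 without the 2 arrays (adjusted p = 0.000102, 7.87-fold), in 3 of 3 rats. Without rat 2 it was 1.49 with all arrays (adjusted p = 0.0545). RPH 48 h over RPH 0 h was -1.96 ± 0.54 with all arrays (adjusted p = 0.00954), lost without rat 3 (adjusted p = 0.16), and -2.62 ± 0.44 without the 2 arrays (adjusted p = 0.000312), which held without any 1 rat. The 48 h level was 25.6% of the 0 h level, or 16.3% without the 2 arrays (10.2%, 29.8% and 14.2% in rats 1, 2 and 3).

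**Figure D3:**
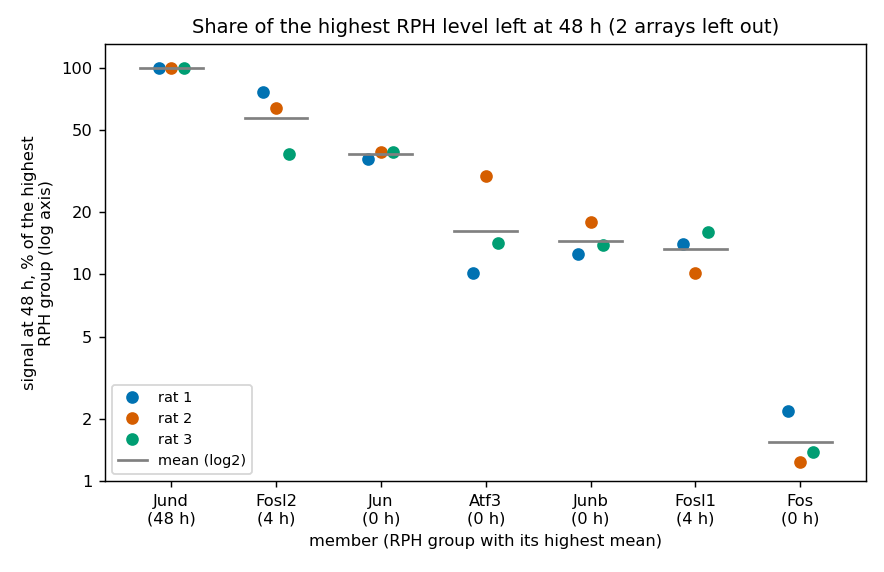
Signal at 48 h as a percentage of the RPH group with the highest mean (log axis), by rat, without the 2 arrays. Grey lines are the means on the log2 scale, and the group named under each gene is its highest. Fos kept 1.55%, Fosl1 13.2%, Junb 14.5%, Atf3 16.3%, Jun 38.1% and Fosl2 57.1%, while Jund was highest at 48 h itself.

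Read across the members, RPH 0 h against liver called 4 of 7 up (Fos, Jun, Junb and Atf3) and 0 down, when 0.141% of all genes tested were higher and 0.432% lower. Without the 2 arrays it called the same 4 members, with 0.338% of all genes higher and 3.41% lower. The median log2 fold change of the 7 was 2.05, or 2.93 without the 2 arrays, beside -0.08 over all genes in both. With all arrays this comparison was fragile. It lost all 4 calls with an estimated correlation between technical arrays (adjusted p = 0.0824 for Fos, 0.155 for Jun, 0.246 for Junb and 0.143 for Atf3), when only these groups were fitted, and at an adjusted p under 0.01. It also lost them without rat 2 or without rat 3 (0 members and at most 1 gene called) and without the liver of rat 2, the liver of rat 3 or the RPH 0 h sample of rat 3, and kept 1 without the RPH 0 h sample of rat 2, whereas without the 2 arrays all 4 calls held without any 1 of the 3 rats.

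RPH 4 h against liver called 5 of 7 up (Fosl1, Fosl2, Jun, Junb and Atf3) and 0 down. This is beside 16.4% of all genes higher and 29.8% lower (16.5% and 30.8% without the 2 arrays). RPH 24 h against liver called 5 up (Fosl1, Fosl2, Jun, Jund and Atf3) and 1 down (Fos), beside 23.7% and 23.9% (23.8% and 24.3%). RPH 48 h against liver called 4 up (Fosl2, Jun, Jund and Atf3) and 0 down, beside 25.4% and 22.6% (25.1% and 23.1%). In these 3 comparisons the same members were called with and without the 2 arrays, and the call of Jun at 4 h was lost with all arrays when rat 2 was left out (log2 1.03, adjusted p = 0.0652). The median log2 change of the 7 was 1.75 at 4 h, 0.94 at 24 h and 0.89 at 48 h (1.71, 0.94 and 0.76 without the 2 arrays), against medians over all genes of -0.25, 0.00 and 0.04. The comparisons with liver share the same liver samples.

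Between steps of the culture, RPH 4 h against RPH 0 h called 2 members up (Fosl1 and Fosl2) and 2 down (Fos and Jun), beside 16.3% of all genes higher and 22.7% lower. Without the 2 arrays it called Junb and Atf3 down as well, 4 in all, beside 16.4% and 22.4%. RPH 24 h against RPH 4 h called 0 up and 3 down (Fos, Fosl1 and Junb), beside 26.3% and 13.5% (26.3% and 13.7% without the 2 arrays). RPH 48 h against RPH 24 h called 0 members in either fit, beside 2.51% higher and 1.77% lower (2.58% and 1.86% without the 2 arrays). In limma Fos was the only one of the 7 with an unadjusted p under 0.05, at log2 1.69 ± 0.63 (adjusted p = 0.183). With a replicate block and without the 2 arrays that Fos change was called (adjusted p = 0.0471). Both signals are under the median of the array, and with 32 added the change was 0.62 (adjusted p = 0.582).

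Set against RPH 0 h, the later cultures were lower in the 4 members that had been up at isolation. RPH 24 h against RPH 0 h called Fos, Jun, Junb and Atf3 down and Fosl1 up, beside 24.1% of all genes higher and 17.3% lower. With all arrays Jun was lost there without rat 2 (adjusted p = 0.137) or the RPH 0 h sample of rat 2 or 3 (adjusted p = 0.059 and 0.0557), and without rat 3 Jun, Atf3 and Fosl1 were lost (adjusted p = 0.19, 0.168 and 0.121), Fosl1 also when the 2 arrays were left out (adjusted p = 0.184). Atf3 was lost also without the RPH 0 h sample of rat 2 or 3 (adjusted p = 0.0609 and 0.0607). Fosl2 was added to those up without the 2 arrays, at log2 0.69 ± 0.24 (adjusted p = 0.0335), beside 24.3% and 17.5%. RPH 48 h against RPH 0 h called the same 4 down and 0 up, beside 26.6% and 17.5% (26.7% and 17.6% without the 2 arrays). Jund was called up there with the rat as a replicate block (log2 0.49, adjusted p = 0.0419), but not with the block once the 2 arrays were left out. RPH 48 h against RPH 4 h, added so that members highest at 4 h could be judged, called Fos, Fosl1, Fosl2 and Junb down and Jund up, beside 31.4% and 17.1% (31.6% and 17.2% without the 2 arrays). The call of Fos there was lost without rat 3 in both fits (log2 -1.38, adjusted p = 0.257, and 0.13 without the 2 arrays) and, with all arrays, without rat 2 (adjusted p = 0.0766), the 4 h sample of rat 1 or 3 (adjusted p = 0.0546 and 0.13) or any 48 h sample (adjusted p between 0.0722 and 0.0787).

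Genes with the closest pattern to each member over the 15 samples were listed among genes whose group means span at least 1 log2 unit (5516 genes with all arrays). For Fos they were Egr1 (Pearson r = 0.929), Zfp36 (0.925) and Nr4a1 (0.922), which encode an immediate early zinc finger factor, a protein that destabilizes AU-rich mRNAs and an orphan nuclear receptor. For Jun they were Hspa1a (0.925), Atf3 (0.92) and Ccn1 (0.784), and for Atf3 they were Jun (0.92), Hspa1a (0.83) and Rnmt (0.743). For Junb they were Trib1 (0.902), Tmem30a (0.863) and Ier2 (0.855). For Fosl1 they were Mbd1 (0.974), Tle4 (0.961) and Nop2 (0.961), for Fosl2 Tmem115 (0.927), Snx18 (0.904) and Dhx15 (0.904), and for Jund Trmt10b (0.885), Dsg2 (0.865) and Ccdc159 (0.86). The samples share rats and groups, and these r are descriptions. Without the 2 arrays 12 of the 21 places were taken by the same genes, 3 of 3 for Fos and for Jun but 0 of 3 for Fosl2. Among the members themselves without the 2 arrays, r was 0.949 between Jun and Atf3, 0.822 between Fosl1 and Fosl2 and 0.809 between Fos and Junb, and 0.004 between Jun and Fosl1.

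Of the other dimer partners and related bZIP factors 18 were listed and 13 tested. At RPH 0 h against liver limma called 0 with all arrays (3 at an unadjusted p under 0.05), beside 0.141% of all genes higher and 0.432% lower. Without the 2 arrays it called 2 up (Fosb and Maff), beside 0.338% higher and 3.41% lower. Fosb, the remaining Fos family gene, had a mean signal of 123 at RPH 0 h against 19.4 in liver without the 2 arrays (log2 2.66 ± 0.49, adjusted p = 0.00944), and 109 against 26 with all arrays (log2 2.07 ± 0.44, adjusted p = 0.0601). At RPH 4 h against RPH 0 h 3 were up and 4 down, beside 16.3% and 22.7% of all genes, with a median log2 change of -0.34 beside -0.15 over all genes. Maff, a small Maf protein without an activation domain, had a mean of 1420 at 4 h against 61.8 at RPH 0 h (log2 4.52 ± 0.39, adjusted p = 2.63e-06, or 4.18 ± 0.51 without the 2 arrays). Its means of 61.8 at RPH 0 h and 24.8 in liver were under the median signals of those arrays, so that folds against them rest on dim signals. Mafk, another small Maf protein, rose by 1.75 ± 0.19, and Nfe2l2, the oxidative stress factor NRF2 that pairs with small Maf proteins, fell by 1.54 (adjusted p = 6.04e-05). At 48 h against liver 3 were up and 4 down, beside 25.4% and 22.6% of all genes, Maff by 2.65 ± 0.39 (adjusted p = 0.000107) and, downward, Nfil3 at -1.81 ± 0.32 and Crem at -1.52 ± 0.19.

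The upstream MAP kinase pathway holds the kinases that phosphorylate Jun and the factors that drive Fos. Of 24 kinases listed 16 were tested, and limma called 0 at RPH 0 h against liver with or without the 2 arrays (2 with all arrays and 3 without at an unadjusted p under 0.05). In that comparison 0.141% of all genes were higher and 0.432% lower (0.338% and 3.41% without the 2 arrays). At RPH 4 h against RPH 0 h 8 were up and 3 down in both fits, beside 16.3% and 22.7% of all genes, with a median log2 change of 0.39 beside -0.15 over all genes. Map2k3, a kinase of p38, had a mean of 8180 at 4 h against 1450 at RPH 0 h (log2 2.49 ± 0.14, adjusted p = 1.06e-07) and 1560 at 48 h. Map3k8 rose by 2.09 ± 0.26, and Map2k6, also a p38 kinase, fell by 1.73 (adjusted p = 0.000883). At 48 h against liver 4 were up and 1 down, beside 25.4% and 22.6% of all genes, the largest being Map3k12 at 0.88 ± 0.23 (adjusted p = 0.00666), Map3k4 at 0.59 ± 0.17 and Map3k1 at 0.49 ± 0.16.

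The dual specificity phosphatases and other inhibitors that switch these kinases off were 13 tested of 16 listed. In limma 0 were called at RPH 0 h against liver in either fit (1 in each at an unadjusted p under 0.05). Over all genes 0.141% were higher and 0.432% lower there with all arrays, and 0.338% and 3.41% without the 2 arrays. At RPH 4 h against RPH 0 h 4 were up and 2 down (5 and 2 without the 2 arrays), beside 16.3% and 22.7% of all genes, with Dusp8, a phosphatase of JNK and p38, at log2 3.49 ± 0.32 (adjusted p = 4.01e-06), Dusp2 at 2.52 ± 0.61 and Dusp4 at -2.46 ± 0.75. These 3 are dim, with means of 98.2 or lower in both groups with all arrays. At 48 h against liver 2 were up and 5 down (3 and 4 without the 2 arrays), beside 25.4% and 22.6% of all genes. Dusp8 (3.25 ± 0.32) and Dusp10 (2.10 ± 0.35, adjusted p = 0.000266) were higher, and Dusp6, an ERK phosphatase, was lower (-1.69 ± 0.48, adjusted p = 0.0103). The folds of Dusp8 and Dusp10 rest on dim liver means of 6.31 and 61.4, and Dusp8 was also dim at 48 h (59.9).

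Of the serum response factor group, which acts on the Fos promoter, 7 of 9 were tested. At RPH 0 h against liver limma called 0 with all arrays, beside 0.141% of all genes higher and 0.432% lower. Without the 2 arrays it called 0 up and 1 down, beside 0.338% and 3.41%. That 1 was Elk3, with a mean of 368 at RPH 0 h against 744 in liver (log2 -1.02 ± 0.22, adjusted p = 0.0214). Srf itself had a mean of 1320 at RPH 4 h against 446 at RPH 0 h (log2 1.57 ± 0.20, adjusted p = 6.88e-05). It was the only one of the 7 up in that comparison, while 3 were down, beside 16.3% and 22.7% of all genes. Among those down were Elk3, a ternary complex factor (-1.72 ± 0.24), and Mef2c (-2.20 ± 0.43). Both were lower at 48 h against liver, Elk3 at log2 -2.17 ± 0.24 and Mef2c at -4.76 ± 0.43. These 2 were the only calls there, beside 25.4% of all genes higher and 22.6% lower. Mef2c had a mean of 4.65 at 48 h against 126 in liver, and at so dim a signal the size of its fall is uncertain. The endothelial and macrophage markers given above fell over the same samples.

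Of the genes for turnover of Fos and Jun mRNA and protein 11 of 13 were tested. The product of Zfp36, tristetraprolin, marks AU-rich mRNAs such as that of Fos for decay. Zfp36 was the only one of the 11 called at isolation, beside 0.141% of all genes higher and 0.432% lower (0.338% and 3.41% without the 2 arrays). Its mean was 9460 at RPH 0 h against 3740 in liver (log2 1.34 ± 0.26, adjusted p = 0.0445), or 11000 against 3130 without the 2 arrays (1.82 ± 0.24, adjusted p = 0.000954). It then fell by 1.31 between 0 h and 4 h (adjusted p = 0.00174), as did Zfp36l1 by 0.93 (adjusted p = 0.00138), while their relative Zfp36l2 rose by 1.52 ± 0.21. At 48 h against liver 3 were up and 2 down in both fits, beside 25.4% and 22.6% of all genes. Zfp36 was below liver (-1.63 ± 0.26), and Zfp36l2 (1.02 ± 0.21) and Det1, in human cells part of a ubiquitin ligase for Jun (0.97 ± 0.22), were above it.

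**Figure D4:**
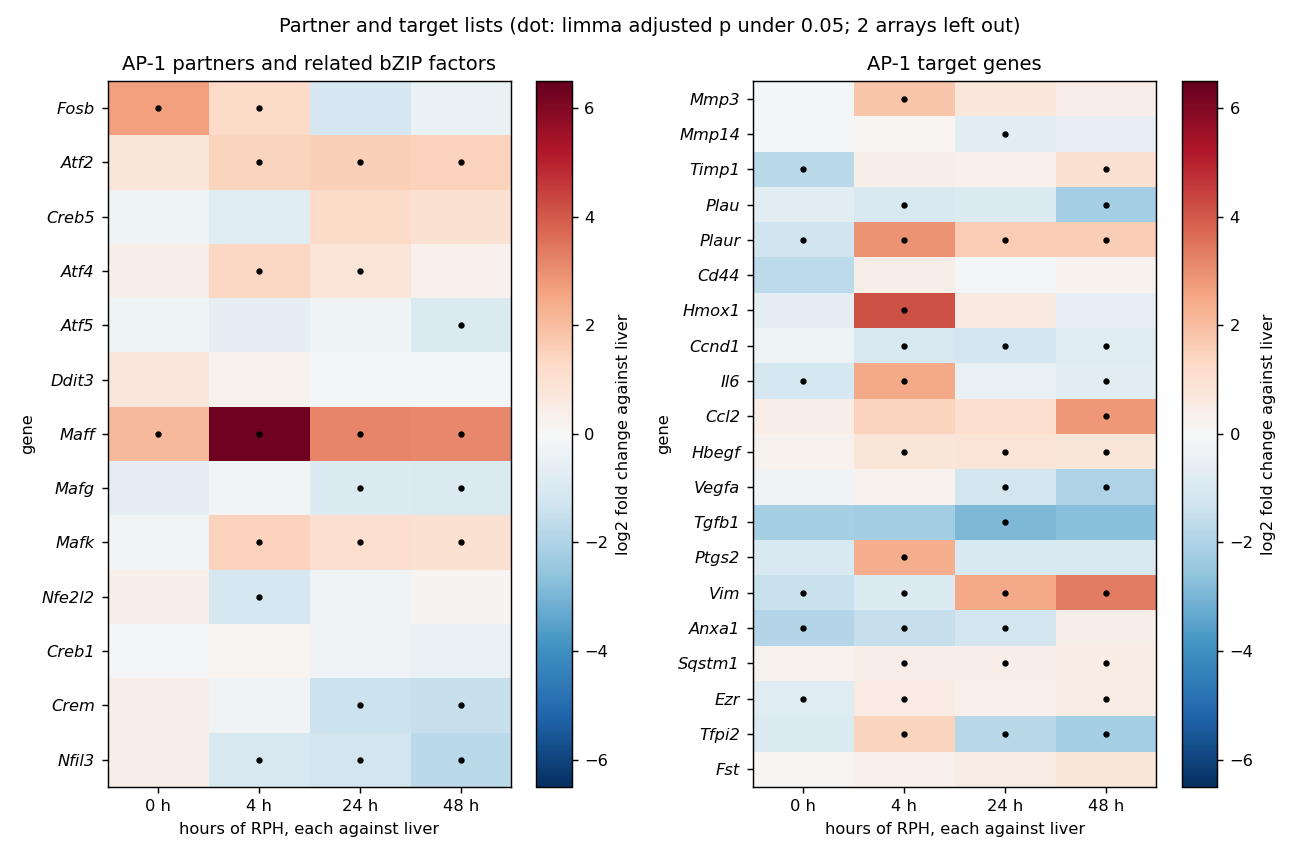
Log2 fold change against liver at 0, 4, 24 and 48 h of RPH (colour) for the 13 partner and related bZIP genes and the 20 AP-1 target genes tested, without the 2 arrays. Dots mark a limma adjusted p under 0.05. Maff was higher than liver at all 4 times, Hmox1 at 4 h only, and Vim was lower at 0 h and 4 h and higher at 24 h and 48 h.

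The calls among known AP-1 target genes were mainly upward at 4 h. Fos, Jun and Atf3 were highest before that, at 0 h, and Fosl1 and Fosl2 at 4 h. Whether the members acted on these genes here was not tested. Of 30 listed 20 were tested. At RPH 0 h against liver limma called 0 with all arrays (6 at an unadjusted p under 0.05), beside 0.141% of all genes higher and 0.432% lower. Without the 2 arrays it called 0 up and 6 down, beside 0.338% and 3.41%. Among the 6 were Anxa1 (-1.89 ± 0.36), Timp1 (-1.74 ± 0.25) and Vim (-1.43 ± 0.24). Anxa1, Timp1 and Vim are also expressed by non-parenchymal cells, whose markers fell in the same comparison. At RPH 4 h against RPH 0 h 10 were up and 1 down in both fits, beside 16.3% and 22.7% of all genes, with a median log2 change of 0.81 beside -0.15 over all genes. Hmox1, the heme-degrading enzyme, had a mean of 10700 at 4 h against 425 at RPH 0 h (log2 4.65 ± 0.36, adjusted p = 1.15e-06). Plaur, the urokinase receptor, rose by 4.23 ± 0.33 and Il6, a cytokine, by 3.60 ± 0.25. Both started from dim signals of 16.1 and 19.5.

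By 48 h the target list was divided. Against liver 8 were up and 5 down (7 and 5 without the 2 arrays), beside 25.4% and 22.6% of all genes, with a median log2 change of 0.41 (0.30 without the 2 arrays) beside 0.04 over all genes. Vim, the intermediate filament vimentin, was higher by 3.45 ± 0.27 (adjusted p = 5.84e-07), with a mean of 9240 at 48 h against 848 in liver. The stellate cell and fibroblast markers, whose cells also express Vim, were higher at 48 h than at 4 h as given above, and their part in this was not tested. Ccl2, a monocyte chemoattractant, was higher by 2.61 ± 0.54, from a dim mean of 50.8 in liver. Tfpi2, a protease inhibitor, was lower (-2.20 ± 0.36), at a dim 36.5 at 48 h. Without the 2 arrays Plau was lower (-2.23 ± 0.39, adjusted p = 0.000443), at a dim 38.8 at 48 h against 182 in liver. Hmox1 was back at 422 at 48 h, against 571 in liver, and Il6 at 25.3, against 42. Between 4 h and 24 h 1 target was up and 8 down, beside 26.3% and 13.5% of all genes.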

How the data were processed

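The authors hybridized RNA of 5 groups from 3 rats to Affymetrix RG230-2 arrays and deposited linear MAS5 signal intensities of 43 arrays, each scaled to a trimmed mean of 500 (trim 2%, checked on the files). MAS5 and the affy package are named in the submitters' processing notes, and versions are not given in the sources used here.

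No offset was added before log2, technical arrays of a rat and group were averaged (15 samples), and a probe set was kept where 5 or more arrays had it above their own median (19013 of 31042 that are no controls, 14565 with 1 gene symbol). In the platform annotation 20826 had 1, 436 several and 9780 no symbol. Each gene was read from its brightest probe set on average (10649 genes). limma 3.58.1 in R 4.3.3 was fitted over all 15 samples (lmFit, eBayes, 3.28 prior degrees of freedom), with Benjamini-Hochberg adjustment over all genes, separately for the 10 comparisons. With 3 rats a group, an exact permutation test of 3 against 3 rats cannot go below p = 0.1. The number of rats limits the precision, since the technical arrays of a rat and group were averaged.

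Members and gene lists were chosen with earlier results of these data known. Named genes are all members, from each list up to 3 genes past the threshold with the largest change at RPH 0 h against liver, RPH 4 h against RPH 0 h and RPH 48 h against liver, and 3 genes per member by correlation. The rule for the lists was applied to both fits, and the genes named by correlation are those of the fit over all arrays.

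The labels give the same rat to each group, which pairs the samples. Deviations from the group means correlated at a median r of 0.341 over 30 pairs from the same rat and at -0.179 over 60 pairs from different rats. The deviations of the rats in a group cancel, so a positive value within rats forces a negative value between rats. The second value is thus no separate measure of the pairing. For 2 livers the match was no better within the rat. Without the 2 arrays liver 1 correlated at a mean r of 0.0625 with the RPH samples of rat 1 and 0.139 with those of rat 2, and liver 2 at -0.0347 with those of rat 2 and 0.0622 with those of rat 1. Alternatives covered normalization, offset, filter, probe set choice, technical arrays, the replicate block, the groups fitted, the prior variance, thresholds, the beta-actin ratio and leaving out samples, and, chosen after seeing the data, leaving out the 2 arrays.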

Additional observations from a re-analysis of the deposited data

Results flagged for a closer look

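For 9 of 35 combinations of member and group, 1 array lay far from the rest, by Dixon's test on the log2 signals of all arrays, while chance gives about 1 in 20 for independent values. The arrays of a group are technical arrays of 3 rats, so this rate is only a guide. The test divides the gap to the nearest array by the whole range, and its 95% critical value for 9 arrays is 0.493. All 9 were the third array of rat 1, labelled liver or RPH 0 h. For Fos the ratio was 0.816 at RPH 0 h, where that array read 143 and the nearest 2040, and 0.857 in liver, with 1930 and the nearest 105. For Jun it was 0.922 at RPH 0 h (1020, nearest 14700) and 0.704 in liver (16200, nearest 2220). For Junb it was 0.852 at RPH 0 h (107, nearest 1550) and 0.628 in liver (2260, nearest 453). For Atf3 it was 0.938 at RPH 0 h (88, nearest 4170) and 0.732 in liver (5740, nearest 193). For Jund it was 0.6 in liver (9970, nearest 4750).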

How the results depend on the processing

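Members called are counted of 7. With all arrays the counts were 4 for RPH 0 h against liver, 5 for 4 h, 6 for 24 h and 4 for 48 h against liver. They were 4 for RPH 4 h, 5 for 24 h and 4 for 48 h against RPH 0 h, 3 for 24 h and 5 for 48 h against 4 h, and 0 for 48 h against 24 h. Technical arrays kept apart with an estimated correlation gave 0 for RPH 0 h, 3 for 4 h, 3 for 24 h and 1 for 48 h against liver, 3 for 24 h and 2 for 48 h against RPH 0 h, and 3 for 48 h against 4 h. The beta-actin ratio as a covariate gave 3 for 24 h against liver, 2 for 24 h and 2 for 48 h against RPH 0 h and 5 for 24 h against 4 h. With it the Fosl2 change at 48 h against liver was log2 -0.0192 (adjusted p = 0.973), a lost call with a change of sign. The same covariate without the 2 arrays gave 3 for 24 h and 2 for 48 h against liver and 5 for 24 h against 4 h. An adjusted p under 0.01 gave 0 for RPH 0 h and 2 for 48 h against liver, 3 for 24 h against RPH 0 h and 2 for 48 h against 4 h. A 2-fold minimum gave 2 for 48 h against liver and 3 for 48 h against 4 h. The filter at 50% of the arrays, which left 5 members tested, gave 2 for 4 h against RPH 0 h, 1 for 24 h against 4 h and 3 for 48 h against 4 h. No filter gave 2 for 48 h against 4 h, and a fit of only the groups compared gave 0 for RPH 0 h against liver. The cause of these differences was not tested. A replicate block over the RPH groups only, with the livers of rats 1 and 2 exchanged, or without the 2 arrays, gave 5 for 24 h against 4 h, and the block without the 2 arrays gave 1 for 48 h against 24 h. The block changed no member's call beyond those given above and that of Fosl2 for 24 h against 4 h without the 2 arrays (adjusted p = 0.0467).

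Leaving out 1 sample or rat gave 0 to 4 members for RPH 0 h, 4 to 5 for 4 h, 3 to 6 for 24 h and 2 to 4 for 48 h against liver. It gave 2 to 5 for 4 h, 2 to 5 for 24 h and 2 to 4 for 48 h against RPH 0 h, 3 for 24 h and 2 to 4 for 48 h against 4 h, and 0 for 48 h against 24 h. The number of genes called was 61 for RPH 0 h against liver, and 0 to 867 under the other settings. Against liver it was 4923 (2510 to 5897) for 4 h, 5068 (2664 to 5979) for 24 h and 5106 (2658 to 6012) for 48 h. Against RPH 0 h it was 4144 (1983 to 5292) for 4 h, 4415 (2275 to 5526) for 24 h and 4696 (2452 to 5776) for 48 h. It was 4237 (2005 to 5351) for 24 h and 5158 (2764 to 6226) for 48 h against 4 h, and 456 (166 to 920) for 48 h against 24 h. Of 2192 values of the members compared over all alternatives, 1974 kept their call (40 of them, not called, changed sign) and 48 gained one. The call was lost with the same sign in 169 and with a change of sign in 1. Signals mostly under the median of the array limit Fos, Fosl1, Fosl2 and Atf3 in liver, Fosl1 and Fosl2 at RPH 0 h, Fos at 24 h, and Fos, Fosl1 and Fosl2 at 48 h.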
